A study of Mus musculus with 300 samples.

Results

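The 2 transcripts described here, ENSMUST00000082214_at and ENSMUST00000092597_at, stood furthest above the male level in female livers of an F2 mouse intercross, and they are 2 of 34406 transcripts measured. They were chosen by their measured values, a mean over 5 log2 units higher in F2 females than in F2 males, so this difference is a description and carries no test. It was 5.73 log2 units for ENSMUST00000082214_at and 5.27 for ENSMUST00000092597_at. A further 3 transcripts also exceeded the threshold of 5 and are not among the listed pair: ENSMUST00000067861_at at 5.23, ENSMUST00000005669_at at 5.08 and ENSMUST00000028010_at at 5.06 log2 units. Just outside the threshold lay ENSMUST00000096418_at, at 4.86.

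Rows of the table carry Ensembl transcript identifiers, and the gene table used here names 0 of the 34406, so no gene, protein or sequence is attached to either transcript. For the same reason the labelled tissue was not checked against liver markers. As background, the mouse liver is one of the organs in which males and females differ most in gene expression. Much of that difference in rodents depends on the pattern of growth hormone release, which is pulsed in males and more continuous in females, and which acts on hepatocytes through the transcription factor STAT5B. Cytochrome P450 enzymes, sulfotransferases and major urinary proteins are the best known classes of sex-dependent liver genes in mice. Whether either transcript belongs to them cannot be read from these data.

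Livers of 300 mice were profiled on the Affymetrix Mouse Gene 1.0 ST array, 1 animal per array, in 14 batches of 2 to 25 arrays. F2 animals of an intercross between MRL/MpJ (MRL) and SM/J (SM), with SM males as founders, gave 135 females and 147 males, and their alleles segregate. The F1 hybrids, MRL and SM each gave 3 females and 3 males. All animals were 13 weeks old, on a chow diet, fasted for some hours and untreated. Values are log2 expression from the RMA method and ran from 4.66 to 13.60 over the table. The number of arrays limits the precision. The limma p-values set differences between means against the spread between animals within groups, estimated over all groups of a fit. Those of correlations come from permutation. In bulk liver, fewer cells of a type and less RNA per cell cannot be told apart.

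Some libraries stood apart from its labels, and results that rest on them are given with and without them. A sex score was formed from 49 other transcripts that separate MRL and SM females from males by over 1 log2 unit, 19 higher in females and 30 higher in males. On this score MRL and SM females average -1 and males 1, and the 2 transcripts described here were left out of it. Replicate 1146, whose label is F1 male, had a score of -0.97, with 48 of the 49 score transcripts nearer the female level. The other F1 males scored 0.93. In F2, 5 libraries scored between -0.6 and 0.5, bounds set after the scores were seen: F2 female replicates 2116 at -0.02, 2295 at -0.09, 2122 at -0.41 and 2293 at -0.59, and F2 male replicate 2308 at -0.0025. Replicates 2116, 2295 and 2308 were run in batch 10, replicates 2122 and 1146 in batch 11, and replicate 2293 in batch 5. The remaining F2 females scored -1.39 to -0.68 (n = 131) and the remaining F2 males 0.51 to 1.13 (n = 146).

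ENSMUST00000082214_at had nearly the same level in females of every strain. It stood at 11.76, 11.80 and 11.88 in MRL females, 11.76, 11.90 and 11.92 in SM females, and 11.88, 11.89 and 11.98 in F1 females. In males it stood at 5.93, 6.04 and 6.11 in MRL, and at 6.04, 6.06 and 6.07 in SM. Animals labelled F1 male had 5.95, 6.08 and 11.79, the last being replicate 1146. Females and males did not overlap in MRL or SM, and in F1 they did not overlap once that library was set aside. Of 34406 transcripts, 51 separated MRL and SM females from males by over 1 log2 unit, the pair described here included.

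Among F2 females the level of ENSMUST00000082214_at ran from 11.27 through a median of 11.94 to 12.20, and its mean was 11.91 ± 0.16 (SD, n = 135). F2 males ran from 5.66 through a median of 6.04 to 11.35, with a mean of 6.18 ± 0.61 (SD, n = 147). Without F2 male replicate 2308 the highest male was at 8.95 and the mean was 6.15 ± 0.43 (SD, n = 146). Each F2 female lay above each F2 male except replicate 2308, which exceeded the lowest F2 females.

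In order of group means, females of F1 (11.92 ± 0.05), F2 (11.91 ± 0.16), SM (11.86 ± 0.08) and MRL (11.82 ± 0.06, SD) followed each other with steps smaller than the SD of F2 females. The male means of F2, SM, MRL and F1 without replicate 1146 were 6.18, 6.06, 6.03 and 6.01, and neighbours in this order were closer than the SD of F2 males. F2 here kept replicate 2308. Without it the F2 male mean was 6.15 with an SD of 0.43, and the order and this closeness stayed. An SD between animals does not test whether group means differ.

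ENSMUST00000092597_at was low in males of every strain and less uniform in females. MRL females had 10.41, 10.47 and 10.77, SM females 10.81, 10.92 and 11.38, and F1 females 10.80, 11.04 and 11.43. Males had 5.35, 5.36 and 5.46 in MRL and 5.45, 5.46 and 5.50 in SM. Animals labelled F1 male had 5.36, 5.41 and, in replicate 1146, 11.06. The highest MRL female lay just under the lowest SM and F1 females, and SM and F1 females overlapped.

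F2 females ran from 5.67 through a median of 10.95 to 11.84 for ENSMUST00000092597_at, with a mean of 10.72 ± 0.89 (SD, n = 135). Without the 4 female libraries of doubtful score the lowest value was 8.43 and the mean 10.80 ± 0.71 (SD, n = 131). F2 males ran from 5.11 through a median of 5.40 to 10.78, with a mean of 5.45 ± 0.46 (SD, n = 147), and without replicate 2308 to 6.16, with 5.41 ± 0.11 (SD, n = 146). The female means of F1 (11.09 ± 0.32), SM (11.04 ± 0.30), F2 and MRL (10.55 ± 0.19, SD, n = 3) differed between neighbours by less than the SD of F2 females. The male means were 5.47 in SM, 5.45 in F2 with replicate 2308 kept, and 5.39 both in MRL and in F1 without replicate 1146. Neighbours were closer than the SD of all F2 males, and also than the SD of 0.11 without replicate 2308, where the F2 mean was 5.41.

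**Figure D1:**
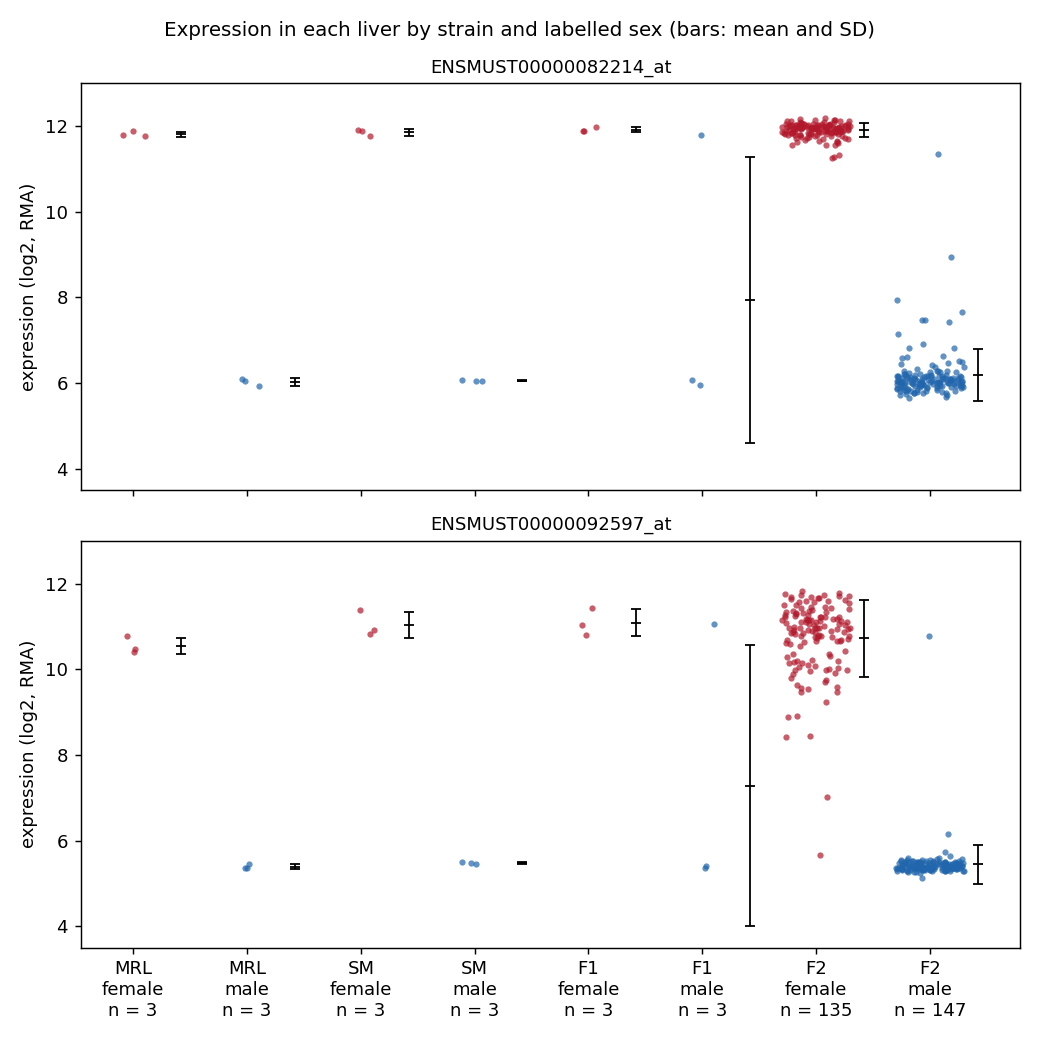
Expression (log2, RMA) of each transcript in every liver, by strain and labelled sex, females in red left of males in blue, with bars for the mean and SD. Females of all strains sit near 11.9 for ENSMUST00000082214_at, while F2 females reach from 5.67 to 11.84 for ENSMUST00000092597_at, and 1 library labelled F1 male stands at the female level of both.

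The sex difference was tested in the parental strains and F1, which did not enter the choice of the transcripts. In MRL, ENSMUST00000082214_at was higher in females by 5.79 ± 0.92 log2 units (SE) and ENSMUST00000092597_at by 5.16 ± 0.91, with limma adjusted p of 0.00127 and 0.00209. Of all transcripts, 6.48% were called higher in MRL females. In SM the differences were 5.80 ± 0.92 and 5.57 ± 0.91 (SE), with limma adjusted p of 0.00222 and 0.00271, where 1.07% were called higher in females. The groups share one estimate of spread, which includes F1 male replicate 1146. Without it the differences were the same, and the SE was 0.06 for ENSMUST00000082214_at and 0.14 for ENSMUST00000092597_at in either strain. The female-higher background was then 6.72% in MRL and 1.76% in SM.

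In F1 the difference was 3.98 ± 0.92 for ENSMUST00000082214_at and 3.81 ± 0.91 for ENSMUST00000092597_at (SE) with all labels kept, and limma adjusted p was 0.0393 and 0.0441, where 1.10% of transcripts were called higher in females. Without replicate 1146 it was 5.91 ± 0.07 and 5.70 ± 0.16 log2 units, with adjusted p of 2.25e-19 and 8.67e-14, and 4.30% of transcripts called higher in females. Over all alternatives the adjusted p in F1 ran up to 0.834. With replicate 1146 kept, the F1 calls were lost when any MRL animal, any F1 female, F1 male 1151 or 1152, or SM male 8 was left out, and for ENSMUST00000092597_at also without SM male 7, with differences between 2.85 and 4.00. In batch 7, which holds an SM animal of each sex, the differences were 5.85 and 5.88. MRL females and males, like F1 females and males, shared no batch. When batch entered the fit as a fixed effect, the MRL differences were 4.84 and 4.24 and did not pass (adjusted p = 0.381 and 0.361, over all alternatives 5.49e-27 to 0.381 and 7.23e-14 to 0.361). That fit had 3 residual degrees of freedom. It kept replicate 1146, the only other MRL, SM or F1 animal in batch 11, that of MRL female 1. The fixed-batch fit was not repeated without replicate 1146.

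Within F2 the difference between the sexes held in each batch as a description. In the 13 batches with both sexes, libraries of doubtful score aside, females exceeded males by 5.57 to 6.00 log2 units for ENSMUST00000082214_at and by 5.16 to 5.72 for ENSMUST00000092597_at. Females and males did not overlap in any of the 13 batches for either transcript. The choice of the pair by this same difference made that likely. The share of all transcripts without overlap in F2 batches was not counted.

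The strain comparison asked whether MRL and SM livers differ in these transcripts within a sex. ENSMUST00000082214_at did not pass the test in either sex. Its difference, MRL minus SM, was -0.04 ± 0.92 log2 units (SE, limma adjusted p = 0.983) in females and -0.03 ± 0.92 in males (adjusted p = 0.989), and SEs were 0.06 without F1 male replicate 1146. The background was 8.02% of transcripts called in females and 6.47% in males, and 7.03% in males without that library. The median absolute difference over all transcripts was 0.09 in either sex, and the strain differences of ENSMUST00000082214_at in this fit were smaller than that. A fit with fixed batch effects moved the female difference to -1.98 (limma adjusted p = 0.241, over all alternatives 0.241 to 0.996). That fit kept F1 male replicate 1146, which shares batch 11 with MRL female 1, and the part of this library in the shift was not tested.

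For ENSMUST00000092597_at the difference was -0.49 ± 0.91 in females (SE, limma adjusted p = 0.775) and -0.08 ± 0.91 in males (adjusted p = 0.969). Without F1 male replicate 1146 the female difference kept its size with an SE of 0.14 and passed the test at an adjusted p of 0.0395, where 8.64% of transcripts passed. Over all alternatives its adjusted p lay between 0.0214 and 0.914. In batch 7, with 1 female of each strain, MRL minus SM was -0.91. A fit with fixed batch effects, with replicate 1146 kept, gave -2.51 (limma adjusted p = 0.11). Male differences within batches 1 and 2 were -0.09 and -0.05.

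The interaction of strain and sex was taken as the female minus the male strain difference. It was -0.01 ± 1.30 for ENSMUST00000082214_at and -0.41 ± 1.29 for ENSMUST00000092597_at (SE), and neither passed (limma adjusted p = 0.996 and 0.866), where 0.221% of transcripts did. Without replicate 1146 the values were the same with SEs of 0.09 and 0.20 and limma adjusted p of 0.936 and 0.228, where 0.584% of transcripts passed. Fixed batch effects, with replicate 1146 kept, moved the interaction to -1.95 and -2.44, with limma adjusted p of 0.425 and 0.3. Across all alternatives these p ran from 0.425 to 0.999 and from 0.173 to 0.971.

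F1 females were compared with the mean of the parental females. ENSMUST00000082214_at lay 0.08 ± 0.79 log2 units above it and ENSMUST00000092597_at 0.30 ± 0.79 (SE), with limma adjusted p of 0.953 and 0.813 and 2.78% of transcripts called. With replicate 1146 left out the SEs were 0.05 and 0.12, and neither passed (limma adjusted p = 0.307 and 0.119, 4.21% of transcripts called). Over all alternatives these p ran from 0.294 to 1.0 and from 0.119 to 0.999. Animals labelled F1 male lay 1.90 ± 0.79 and 1.85 ± 0.79 above the parental males, without passing (adjusted p = 0.617 and 0.623, 0.0262% of transcripts called), and without replicate 1146 the differences were -0.03 ± 0.06 and -0.04 ± 0.14 (0.0145% of transcripts called).

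The spread within F2 took opposite forms in the 2 transcripts. ENSMUST00000082214_at varied less in females than in males, where it had a tail of high values. ENSMUST00000092597_at varied less in males than in females, where it had a tail of low values. These statements set the sexes against each other and not the pair against other transcripts. In F2 females 84.0% of all transcripts varied less than ENSMUST00000082214_at, and in F2 males 53.3% varied less than ENSMUST00000092597_at. Libraries of doubtful score left out, 7 of 146 F2 males lay over 1 log2 unit above the male median of ENSMUST00000082214_at, at 7.14 to 8.95, and 0 of 131 F2 females lay over 1 unit below the female median. Of ENSMUST00000092597_at the reverse held: 15 of 131 F2 females lay over 1 unit below their median, at 8.43 to 9.91, and 0 of 146 F2 males lay over 1 unit above theirs. The 7 males came from 6 batches and the 15 females from 11. Male levels of both transcripts lie low in the range of the table, where RMA compresses differences, so a small spread there does not show stable expression.

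In the 7 males with high ENSMUST00000082214_at, ENSMUST00000092597_at stood at 5.26 to 5.41, around its male median of 5.40. The 15 females with low ENSMUST00000092597_at had ENSMUST00000082214_at between 11.27 and 12.15, where the median of F2 females was 11.94. One of them, replicate 2273, was low in both: at 8.45 for ENSMUST00000092597_at it had 11.27 for ENSMUST00000082214_at, the lowest of all 135 females. Replicate 2324, at 9.63, had 11.57. Among males, replicate 2007 had the second highest ENSMUST00000092597_at, 6.16, and 6.81 for ENSMUST00000082214_at.

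The values of ENSMUST00000092597_at in F2 females thinned out below the median and then rose again in number. Between 0.2 and 0.4 log2 units below the median lay 12 of 131 animals, between 0.4 and 0.6 units 2, between 0.6 and 0.8 units 7, and between 0.8 and 1.0 units 11. Above the median the same steps from 0.2 to 0.8 units held 16, 10 and 15 animals. The shape was not tested. Below the lowest of the 9 MRL, SM and F1 females, at 10.41, lay 34 of 131 F2 females, and 22 lay above the highest, at 11.43. For ENSMUST00000082214_at 15 of 131 lay below and 46 above the range of 11.76 to 11.98. A range over 9 animals is narrower than one over 131 in itself. No genotypes entered these comparisons.

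**Figure D2:**
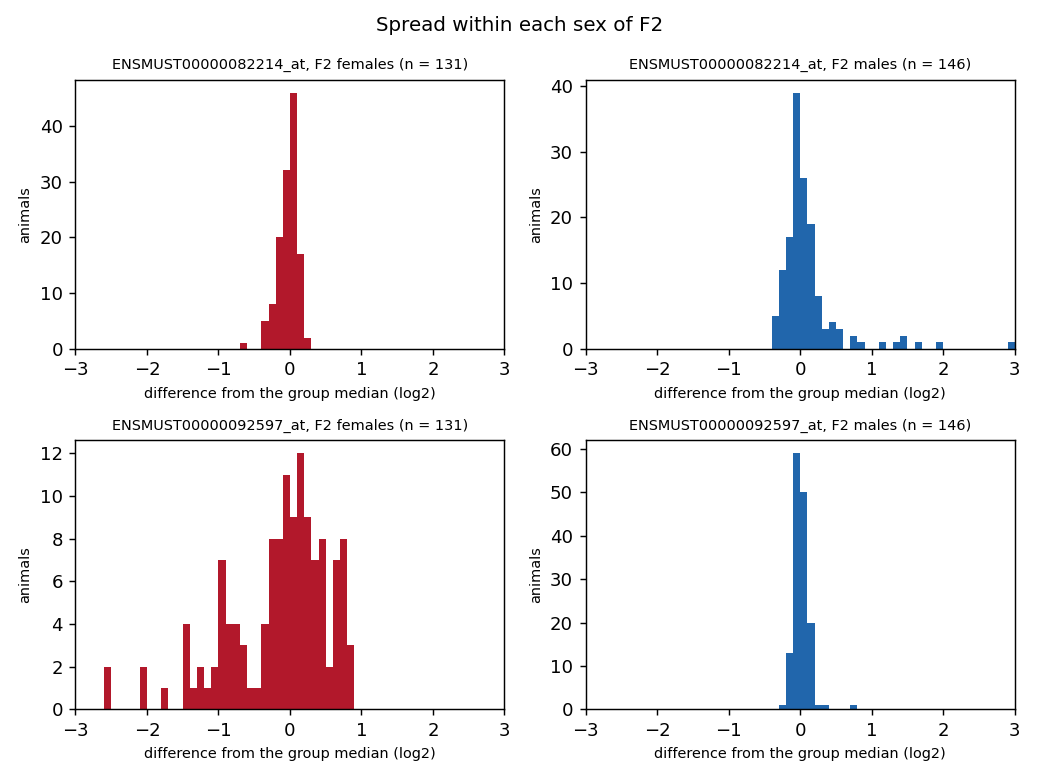
Number of F2 animals by distance from the group median (log2 units, bins of 0.1), for each transcript in females (left, n = 131) and males (right, n = 146), libraries of doubtful score left out. ENSMUST00000082214_at has a tail upward in males to 8.95, and ENSMUST00000092597_at a tail downward in females to 8.43.

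F2 animals were set against the genetically uniform groups by variance, as a description. In females the SD of ENSMUST00000092597_at within batches was 0.73 in F2 and 0.28 within the MRL, SM and F1 groups, a variance ratio of 6.91, and the median ratio over all transcripts was 1.53. For ENSMUST00000082214_at the female SDs were 0.14 in F2 and 0.07 within groups, a ratio of 4.52. In males the ratio was 38.3 for ENSMUST00000082214_at, with SDs of 0.44 and 0.07, and 5.98 for ENSMUST00000092597_at, with 0.11 and 0.04, where the median over all transcripts was 1.28. The ratio of 38.3 draws on the tail of high males. Batches aside, the SD of ENSMUST00000082214_at in F2 males was 0.43 without replicate 2308 and 0.37 without replicate 2328 as well. The interquartile range was 0.23 in both cases. In F2 females 99.9% of all transcripts had a lower variance than ENSMUST00000092597_at and 84.0% a lower one than ENSMUST00000082214_at. In F2 males these shares were 53.3% for ENSMUST00000092597_at and 99.5% for ENSMUST00000082214_at. The F2 SDs within batches, the ratios and the shares rest on 131 F2 females and 146 F2 males, libraries of doubtful score left out. The group SDs rest on 9 females and 8 males, replicate 1146 left out.

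Differences between batches did not pass the test for either transcript. In F2 females the limma F test over batches gave an adjusted p of 0.841 for ENSMUST00000082214_at and 0.996 for ENSMUST00000092597_at, where 18.3% of transcripts were called. In F2 males these were 0.715 and 0.548, where 15.5% were called.

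The covariation of the 2 transcripts was examined within each sex of F2, after subtraction of batch means, as 1 of 5 relations per sex and 10 in all. In F2 females the 2 rose together weakly, with Pearson's r = 0.40 (permutation p = 1e-05, the smallest that 100000 permutations can give, adjusted 2.5e-05) and Spearman's rho = 0.26 (p = 0.00238, adjusted 0.00595, n = 135). Without the libraries of doubtful score r was 0.23 (permutation p = 0.00939, adjusted 0.0235) and rho 0.16 (p = 0.0688, adjusted 0.138, n = 131). Without the 2 animals farthest from the median of ENSMUST00000082214_at r was 0.21 (p = 0.0149, adjusted 0.0373). Within 13 batches of at least 6 females r ran from -0.29 to 0.71 with a median of 0.15, and it was positive in 8.

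In F2 males the correlation rested on 1 library. With all 147 males r was 0.69 (permutation p = 8e-05, adjusted 0.000133) and rho 0.18 (p = 0.0295, adjusted 0.0492). Without replicate 2308 r was 0.01 (permutation p = 0.87) and rho -0.0001 (p = 0.999, n = 146). Within the 12 batches of at least 6 males, that library aside, r was positive in 4 and negative in 8.

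**Figure D3:**
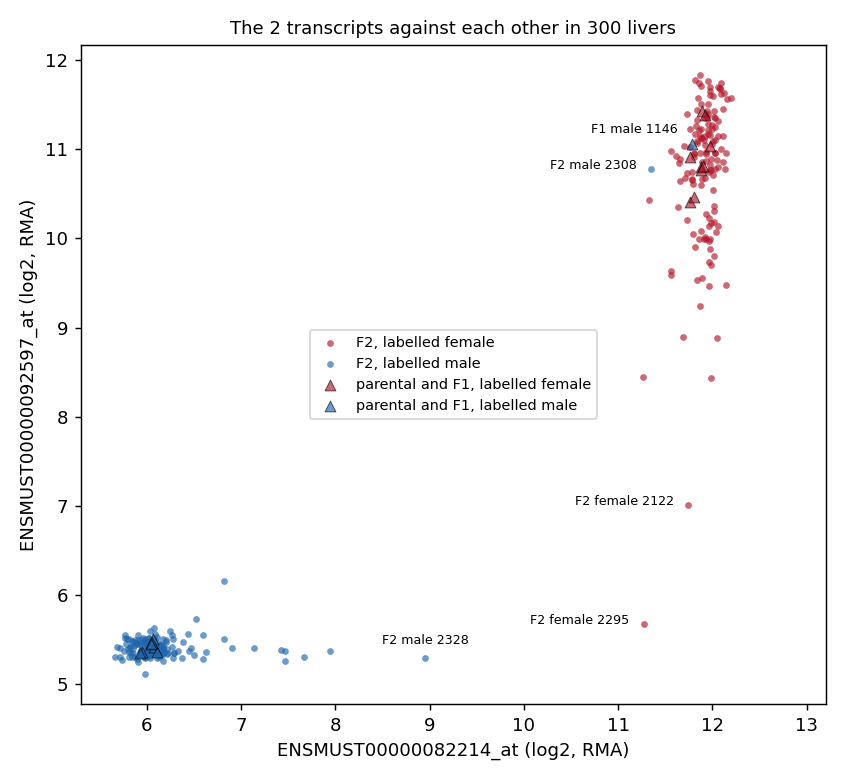
ENSMUST00000092597_at against ENSMUST00000082214_at (log2, RMA) in 300 livers, F2 as circles and parental and F1 animals as triangles, by labelled sex. F2 females form a column that reaches down to 5.67 in replicate 2295, F2 males a row that reaches right to 8.95 in replicate 2328, and F2 male 2308 and F1 male 1146 lie with the females.

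Each transcript was also set against the sex score of the other 49 transcripts, on which lower is more female. Only the pair was left out of the score. The 49 were not checked for transcripts close to either, such as ENSMUST00000116252_at, which followed ENSMUST00000092597_at with r = 0.97 in 131 F2 females. What such transcripts would add to the r below was not tested. In F2 females ENSMUST00000082214_at was higher where the score was lower, with r = -0.74 and rho = -0.66 (both permutation p = 1e-05, adjusted 2.5e-05 and 3.33e-05), and without the libraries of doubtful score r was -0.64 (n = 131). The sign was negative in 13 of 13 batches. For ENSMUST00000092597_at r was -0.52 and rho -0.47 (same p), and -0.32 without those libraries (permutation p = 0.00025, adjusted 0.000833), negative in 11 of 13 batches. Without the 2 animals of farthest score r was -0.67 and -0.43.

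In F2 males ENSMUST00000082214_at kept the relation without replicate 2308, with r = -0.47 (permutation p = 1e-05, adjusted 5e-05) and rho = -0.36 (n = 146), and it was negative in 11 of 12 batches. It was r = -0.39 without replicate 2328 as well. ENSMUST00000092597_at did not keep it: r was -0.54 with all males (adjusted p = 8e-05) and -0.10 without replicate 2308 (permutation p = 0.222, adjusted 0.371). The 7 males with high ENSMUST00000082214_at scored from 0.51 to 0.96, against a median of 0.91 for F2 males. Array spread, the SD of an array over all transcripts, gave r between -0.12 and 0.09 with the 2 transcripts, and none passed (permutation adjusted p from 0.246 to 0.696). For ENSMUST00000092597_at in F2 males the rank correlation depended on the scaling: rho was 0.02 as deposited (adjusted p = 0.833), -0.35 after quantile normalization (adjusted p = 0.0001) and 0.21 with array medians subtracted (adjusted p = 0.0182).

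**Figure D4:**
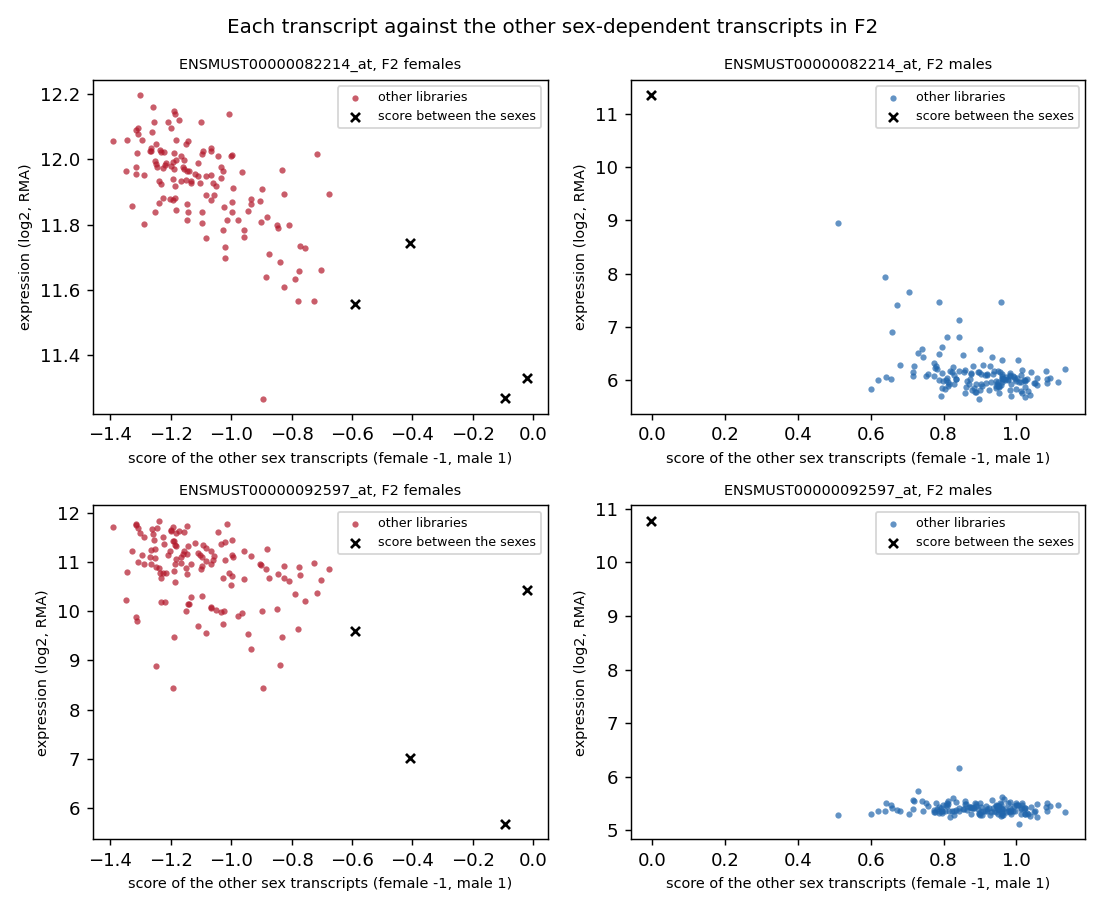
Each transcript (log2, RMA) against the score of the other 49 sex transcripts (female -1, male 1) in F2 females (left) and F2 males (right), with crosses for the 5 libraries that score between -0.6 and 0.5. Levels of ENSMUST00000082214_at decline with the score in both sexes, while ENSMUST00000092597_at in males lies between 5.11 and 6.16 in all but replicate 2308.

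Single libraries broke one transcript without the other. F2 female replicate 2295 had 11.27 for ENSMUST00000082214_at, the second lowest of 135 females and still 0.89 of the way up the scale between the F2 male median at 0 and the F2 female median at 1. The same library had 5.67 for ENSMUST00000092597_at, the lowest of 135 and at 0.05 on that scale. Of its 49 score transcripts 27 lay nearer the female and 22 nearer the male level. F2 female replicate 2122 showed the same split, with 11.74 and 7.01, at 0.97 and 0.29 on the scale, and 42 of 49 score transcripts nearer the female level.

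F2 male replicate 2308 broke both transcripts, with 11.35 and 10.78, at 0.90 and 0.97 of the way to the female median, although 30 of its 49 score transcripts lay nearer the male level. F2 female replicate 2116, with a score of -0.02, had 11.33 and 10.43, at 0.90 and 0.91. Its 49 score transcripts were divided into 24 nearer the female and 25 nearer the male level. F1 male replicate 1146 had 11.79 and 11.06, at 0.97 and 1.02, with 48 of 49 score transcripts nearer the female level. F2 male replicate 2328, run in batch 11, broke only ENSMUST00000082214_at, at 8.95 or 0.49 on the scale, and had 5.29 for ENSMUST00000092597_at. Why these libraries depart from their labels was not tested.

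The 3 other transcripts above the threshold of 5 showed which pattern was shared in those libraries. In replicate 2295, ENSMUST00000067861_at and ENSMUST00000028010_at stood at 6.37 and 6.41, near their male medians of 6.10, while ENSMUST00000005669_at was at 7.66, 0.39 of the way to its female median. In replicate 2122 the first pair was at 6.07 and 6.16, again at the male level, with ENSMUST00000005669_at at 9.49. ENSMUST00000082214_at, at 0.89 and 0.97 of the scale, was the one of the 5 nearest its female median in both libraries. In replicate 2328 the 3 other transcripts were at 0.02 of the scale or lower, so that of the 5 only ENSMUST00000082214_at was raised. ENSMUST00000082214_at was also the least variable of the 5 in F2 females (SD 0.14 against 0.38 to 0.71) and the most variable in F2 males (SD 0.43 against 0.11 to 0.15), libraries of doubtful score left out; no test of these differences was made.

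The transcripts that varied most like each of the pair were sought among all others over 131 F2 females, with batch means subtracted, and are given as a description. ENSMUST00000116252_at followed ENSMUST00000092597_at with r = 0.97, against 0.58 for the next, ENSMUST00000007139_at. ENSMUST00000116252_at averaged 9.36 in F2 females and 5.32 in F2 males, a difference of 4.04 log2 units, and its r over 146 F2 males was 0.31. Whether ENSMUST00000116252_at and ENSMUST00000092597_at share a gene or probes is not recorded in the sources used here. At the other end, ENSMUST00000039229_at and ENSMUST00000026901_at had r = -0.58 and -0.51, and their own sex differences in F2 were 0.12 and 0.03 log2 units.

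For ENSMUST00000082214_at no transcript came as close. The highest r, 0.64, belonged to ENSMUST00000093028_at and ENSMUST00000010267_at, which were 0.54 and 0.55 log2 units higher in F2 females, and in F2 males these r were 0.33 and 0.34. The lowest, -0.69, belonged to ENSMUST00000048947_at and ENSMUST00000106808_at, whose differences, F2 females minus F2 males, were -1.09 and -1.07 log2 units. Ranked by r over F2 females, ENSMUST00000092597_at came at place 1886 of 34405 for ENSMUST00000082214_at, and ENSMUST00000082214_at at place 446 for ENSMUST00000092597_at.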

How the data were processed

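Each of 300 livers gave 1 Affymetrix array. The deposited log2 values, 1 per Ensembl transcript and array, came from the authors' RMA run; the submitters' processing notes name affy and R 2.11. RMA in general corrects background, quantile-normalizes arrays and summarises probes, and compresses differences near background. Neither the Ensembl release nor a build is given in the sources used here.

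Groups were taken from the labels. The transcripts and tests were chosen with earlier results of these data known. Contrasts were fitted with limma 3.58.1 in R 4.3.3 (lmFit, eBayes) on 18 MRL, SM and F1 animals with 6 group means, and Benjamini-Hochberg adjustment ran over all 34406 transcripts at 0.05. F2 was left out of that fit. Correlations used 100000 two-sided permutations (NumPy 2.4.6). The fits were tested on simulated data. Named transcripts were the pair and, for each, the 2 with the highest and the 2 with the lowest r in F2 females; the 3 others above the threshold, and the libraries described singly, were chosen after their values were seen. Lists of genes by symbol were not applied, because no identifier could be named. The highest correlation between 2 arrays was 0.995, so no array was an exact copy of another. Whether an animal was run on 2 arrays or exchanged with another was not tested. The median of an array ran from 6.71 to 6.83.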

Additional observations from a re-analysis of the deposited data

How the results depend on the processing

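Of 572 alternative values for 36 results, 505 kept their direction and their side of the threshold, 46 fell short of it, 4 newly passed and 17 turned sign, and 19 results kept both throughout. In the values below ENSMUST00000082214_at is given before ENSMUST00000092597_at. The sex difference in SM passed under all 28 alternatives, and that in MRL under 27, failing with fixed batch effects (4.838 and 4.237). The F1 sex difference fell short with fixed batch effects (2.954 and 2.462), quantile normalization (3.949 and 3.774), a trended robust fit or only the compared groups (3.982 and 3.812 under each) and the array-spread slope subtracted (3.989 and 3.737), and for ENSMUST00000092597_at with batch effects estimated in F2 subtracted (3.68). Leaving out 1 animal gave 2.987 to 5.907 and 2.853 to 5.704, and the call held in 6 and 5 of 18 such fits. F1 minus parental females turned to -0.003657 and -0.08971 with fixed batch effects. The same fit moved MRL minus SM females to -1.984 and -2.506 and the interaction to -1.945 and -2.436. F1 minus parental males ran from -0.02955 to 2.89 and from -0.04298 to 2.808 with 1 animal left out, the lowest without replicate 1146, and ENSMUST00000082214_at passed at 1.902 with all 300 animals and batch. For ENSMUST00000082214_at, batch as a random block turned the interaction to 0.1452 and MRL minus SM females to 0.1176, quantile normalization turned MRL minus SM males to 0.01775, and leaving out 1 animal gave -0.06238 to 0.0256 for the interaction and -0.06957 to 0.01813 for males. For ENSMUST00000092597_at, MRL minus SM females (-0.489) passed in MRL and SM animals alone with no replicate block (adjusted p = 0.0214), with a replicate block (0.0317) and without replicate 1146, and ran from -0.6001 to -0.3172 with 1 animal left out. Same-numbered MRL and SM animals had deviations correlated between -0.085 and 0.219, so the numbers were not taken as pairs; 6 of 12 animals correlated best with their own number, and the block moved calls among all transcripts to 3069 against 3112 in females and 2457 against 2446 in males. In F2 males, r of the 2 transcripts was 0.0126 without replicate 2308 and 0.0637 without replicate 2328 as well, and r of the score and ENSMUST00000092597_at was -0.1014 and -0.127. Array-spread r turned to -0.0977 for ENSMUST00000092597_at in F2 females (quantile normalization), and in F2 males to -0.0961 and -0.1436 (quantile normalization) and -0.0188 and -0.0359 (no subtraction of batch means). The values without replicates 1146 and 2308 follow from those libraries. The fit with fixed batch effects kept replicate 1146, which shares batch 11 with MRL female 1, and was not repeated without it. For the changes under that fit and for the other changes the cause was not tested. The omission of F2 replicates 2308, 2295, 2122 and 2328, and all alternatives to the F2 sex difference, were added after seeing the data. With 3 animals a group, arrays limit what the strain comparisons can show.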
